A study of Mus musculus with 4 samples.

Results

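The genes of the proteasome, the protease that breaks down proteins tagged with ubiquitin, were followed in mouse livers taken 1 day after treatment with DEN (diethylnitrosamine), which hepatocyte enzymes convert into a DNA-alkylating carcinogen. Members were all genes whose symbol starts with Psma, Psmb, Psmc, Psmd, Psme, Psmf or Psmg followed by a number, leaving out pseudogenes marked -ps. This rule took 49 of the 35522 genes listed, and 47 of them passed the filter on low counts. Livers labelled Dph1 KO (n = 2) were set against livers labelled Control (n = 2), all given DEN and all of strain C57BL/6 in the labels. Age, sex and the allele or Cre driver behind the knockout are not given in the labels, and livers without DEN were not analysed here. Nothing in the labels states that each library is a different animal, and the p-values therefore reflect only the variation among these 4 libraries, which could be technical.

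The proteasome is built from a barrel-shaped core particle and a regulatory particle that caps it. The core is a stack of rings of alpha subunits (Psma genes), which gate the entrance, and of beta subunits (Psmb genes), of which Psmb5, Psmb6 and Psmb7 cut proteins. In cells exposed to interferon gamma these are replaced by Psmb8, Psmb9 and Psmb10 to form the immunoproteasome, which favours peptides for class I histocompatibility molecules. The regulatory particle unfolds substrates with ATPases (Psmc genes) and binds and deubiquitinates them with other subunits (most Psmd genes). Psme genes encode alternative caps, Psmf1 an inhibitor, and Psmg1 to Psmg4, Psmd5, Psmd9 and Psmd10 encode chaperones that assemble the complex.

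The libraries held 20410978 and 21137358 reads in genes for Dph1 KO and 19474596 and 20355790 for Control. Dph1, needed for the initial step in making diphthamide, a modified histidine of translation elongation factor eEF2, had 17.8 and 31.5 CPM in Dph1 KO livers, against 70.3 and 68.3 CPM in Control livers. CPM are reads scaled to a common library size, here with TMM factors that adjust for library composition. The Dph1 log2 fold change was -1.49 (SE 0.26, edgeR adjusted p = 0.0107). Of the Dph1 reads 54.2% matched one place only, and the fit on such reads alone gave -1.93. As a check of the tissue, the 8 hepatocyte markers summed to 64012 and 64990 CPM in Dph1 KO and to 76126 and 94718 CPM in Control. Summed markers of other cells stood at 138 and 232 CPM in Dph1 KO against 241 and 251 CPM in Control for macrophages (6 genes), and at 153 and 158 CPM against 177 and 168 CPM for endothelium (6 genes). Stellate cell markers (6 genes) summed to 138 and 123 CPM in Dph1 KO against 132 and 155 CPM in Control, and bile duct markers (5 genes) to 22.3 and 18.9 CPM against 34.4 and 20.5 CPM. B cell markers (5 genes) summed to 3.98 and 3.48 CPM in Dph1 KO against 5.71 and 6.79 CPM in Control, and neutrophil markers (5 genes) to 1.10 and 2.10 CPM against 2.39 and 1.06 CPM. The marker genes called lower (edgeR adjusted p under 0.05) were Apoa1, Cd79a, Cd68, Des and Col1a1, and no marker was called higher. Signs were mixed within most lists. Positive were 4 of 8 hepatocyte, 3 of 6 macrophage, 3 of 5 leukocyte, 2 of 6 endothelial and 2 of 6 stellate markers. So were 2 of 3 tested T and NK cell markers and 1 of 5 bile duct markers. All 3 tested B cell markers and both of the 2 tested neutrophil markers were negative. In whole tissue, fewer cells of a type and less RNA per cell cannot be told apart.

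Most proteasome transcripts did not pass the test between the genotypes. Of the 47 tested members, 1 rose in Dph1 KO livers, Psme4, and 1 fell, Psmg3, with the false discovery rate held at 0.05 (quasi-likelihood test of edgeR, p adjusted by Benjamini-Hochberg over 13303 genes). That is 4.26% of the members, where 12.3% of all tested genes were called (4.86% higher and 7.47% lower). The log2 fold changes of the members ran from -0.93 to 1.27 with a median of 0.01, and the median of all tested genes was 0.04. Of the 47, 24 had a positive and 23 a negative value. At an unadjusted p under 0.05, 5 members were higher and 8 lower, where 34.2% of all tested genes were under that value. In CPM the libraries of the genotypes did not overlap in 33 of the 47 (70.2%), with 16 higher and 17 lower in Dph1 KO. Of all tested genes 67.4% did not overlap (34.9% higher and 32.5% lower). Overlap of single genes was judged in CPM unless TPM is named, and it can differ in TPM.

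These counts moved with the libraries used. Without Dph1 KO replicate 2, 9 members were called higher and 16 lower, where 18.9% of all genes were called higher and 20.4% lower. Without Dph1 KO replicate 1 it was 2 higher and 0 lower, against 4.15% and 5.59% of all genes. No member was called without Control replicate 1 (1.31% and 4.13% of all genes), and 1 was called higher and 0 lower without Control replicate 2 (1.32% and 2.5%).

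They also moved with the scaling and the test. Without scaling beyond the library total, 8 members were called higher and 1 lower, against 19.8% and 5.93% of all genes, and the median of all genes moved by 0.26 on the log2 scale. In that fit 77.0% of all calls were rises, against 39.4% with TMM scaling. With limma on log2(TPM + 1) it was 13 higher and 1 lower, against 22.1% and 5.25% of all genes, and with a pseudocount of 0.1 the same counts stood against 23.1% and 5.4%. DESeq2 called 2 higher and 5 lower (4.77% and 10.3% of all genes), and upper quartile scaling 3 higher and 1 lower (8.06% and 7.28%). RLE size factors and uniquely matched reads each called 1 higher and 1 lower, where 4.6% and 8.16% of all genes were called with RLE and 4.8% and 7.53% with unique reads. Exon reads called 2 in each direction (6.45% and 8.95%), no filter 1 higher and 3 lower (4.31% and 6.68%), and a mean of at least 1 CPM 1 higher and 0 lower (4.3% and 6.71%). The sign turned for Psmb8, Psmb9, Psmc2, Psmd2 and Psme2 with no scaling, also for Psma5, Psmd13 and Psmf1 in limma on log2(TPM + 1), and for Psmc1 and Psmd8 with RLE, and none of these was called in either fit.

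**Figure D1:**
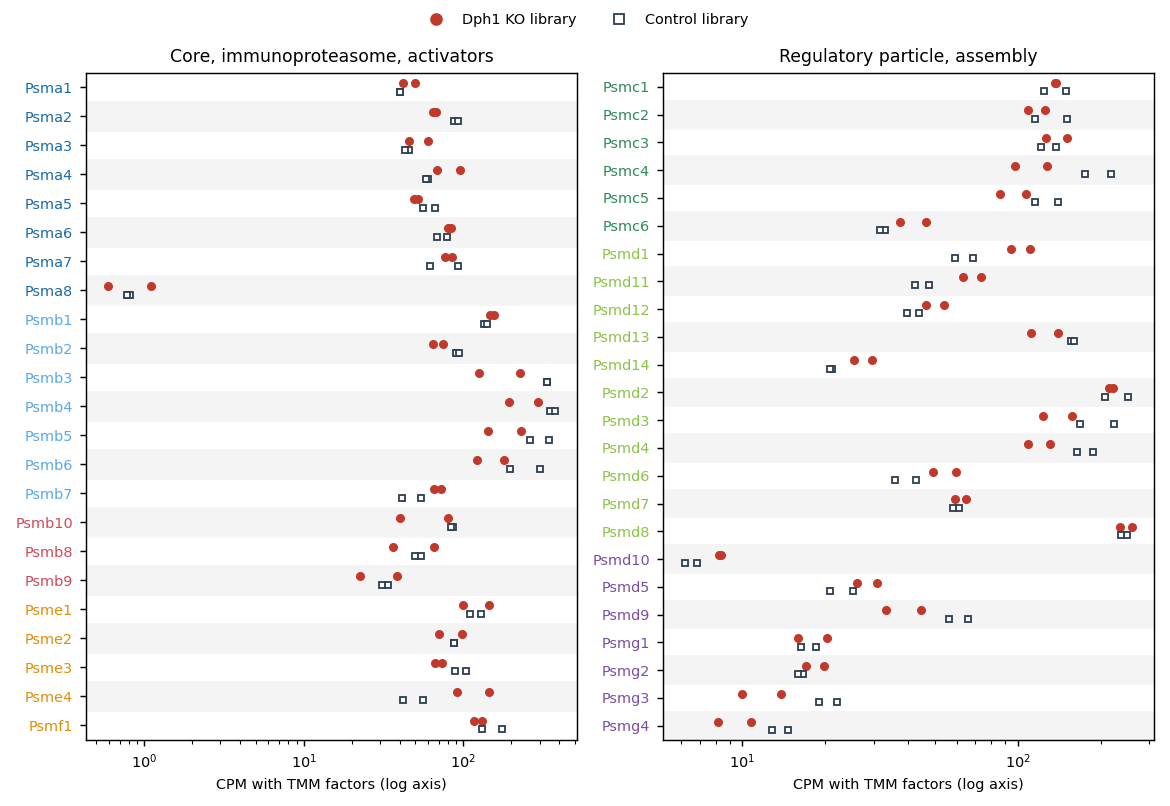
CPM with TMM factors (log axis) of each tested proteasome gene in the 2 Dph1 KO libraries (filled circles) and the 2 Control libraries (open squares), with gene names coloured by class. Psme4 stands to the right in Dph1 KO (144 and 90.7 CPM, against 42.0 and 55.7 CPM in Control), while Psmb3, Psmc4 and Psmg3 stand to the left.

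Promoter windows of 300 bases, from 250 before to 50 after the gene start, were taken from RefSeq on GRCm38.p6 and matched 41 of the 49 members. They are shown for the called genes Psme4 and Psmg3, and for Psmb6 and Psmb9 as a constitutive subunit and its replacement. Capitals mark matches on either strand to the antioxidant response motifs TGACNNNGC and TGAGNNNGC, which Nfe2l1 and Nfe2l2 are known to bind, to the CCAAT box, and to the interferon-type motifs TTCNNNGAA and a GAAA repeat with 2 bases between its copies. Each motif was searched on its own, overlaps included, and GC boxes (GGGCGG) are not capitalised. The RefSeq start of Psmg3 lies a short way upstream of the gene's 5′ end in the deposited tables.
Psme4 promoter, chr11:30771525-30771824, plus strand: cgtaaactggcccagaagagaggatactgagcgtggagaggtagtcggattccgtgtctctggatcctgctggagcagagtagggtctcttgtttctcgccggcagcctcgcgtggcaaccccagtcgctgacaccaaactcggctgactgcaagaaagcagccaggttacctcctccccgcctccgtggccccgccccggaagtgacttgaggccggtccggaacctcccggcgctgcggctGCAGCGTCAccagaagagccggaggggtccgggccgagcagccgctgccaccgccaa
Psmg3 promoter, chr5:139826845-139827144, minus strand: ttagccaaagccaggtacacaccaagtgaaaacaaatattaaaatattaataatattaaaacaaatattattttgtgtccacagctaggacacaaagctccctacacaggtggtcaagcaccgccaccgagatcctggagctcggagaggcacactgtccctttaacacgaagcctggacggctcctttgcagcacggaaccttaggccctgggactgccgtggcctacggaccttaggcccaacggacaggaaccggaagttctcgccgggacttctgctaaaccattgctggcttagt
Psmb6 promoter, chr11:70525107-70525406, plus strand: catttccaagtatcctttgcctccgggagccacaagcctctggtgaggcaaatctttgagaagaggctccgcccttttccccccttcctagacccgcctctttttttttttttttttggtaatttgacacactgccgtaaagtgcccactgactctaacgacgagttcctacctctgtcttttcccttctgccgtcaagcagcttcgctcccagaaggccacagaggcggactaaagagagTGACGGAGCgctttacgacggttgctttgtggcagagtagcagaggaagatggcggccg
Psmb9 promoter, chr17:34187281-34187580, minus strand: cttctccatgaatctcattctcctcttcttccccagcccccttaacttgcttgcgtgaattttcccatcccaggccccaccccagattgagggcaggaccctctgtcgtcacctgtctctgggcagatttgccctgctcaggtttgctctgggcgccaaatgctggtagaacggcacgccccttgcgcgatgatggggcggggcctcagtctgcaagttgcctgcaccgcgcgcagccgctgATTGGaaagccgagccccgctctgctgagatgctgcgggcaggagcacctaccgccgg
Psme4 and Psmb6 each held TGACNNNGC once, across the gene start in Psme4 and just before it in Psmb6, and their log2 fold changes were 1.27 and -0.74. Psmb9 held a CCAAT box on the reverse strand, and Psmg3 held none of these motifs. The 41 members had 44 windows in all, and a single window per member was counted. They include Psmc3ip, which matched by name only, and Psmb11, which had no reads. Over the 41, TGACNNNGC was found in 14.6% and TGAGNNNGC in 29.3%, against 13.2% and 18.3% of 16870 protein-coding promoters. CCAAT was found in 34.1% against 39.0%, the GAAA repeat in 12.2% against 3.46%, and TTCNNNGAA in 7.32% against 7.78%. The GC box GGGCGG was found in 56.1% against 48.0%. A match is a description of the letters and not of binding.

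Psme4 encodes a large single-chain cap, an activator that opens the core without needing ubiquitin and that is known for acting on histones in the nucleus. It had 144 and 90.7 CPM in Dph1 KO livers, against 42.0 and 55.7 CPM in Control livers. Both Dph1 KO libraries lay above both Control libraries, and the lower Dph1 KO value was 1.63 times the higher Control value. The means were 118 ± 37.9 CPM in Dph1 KO and 48.9 ± 9.64 CPM in Control (SD, n = 2 each). On the log2 scale the fold change was 1.27 (SE 0.27, edgeR adjusted p = 0.0196). The gene (ID 103554; GRCm38 chromosome 11, 30771775 to 30880361, plus strand) had 3405 and 1984 total reads in Dph1 KO, against 773 and 1001 in Control, of which 99.9% matched one place only. Exon reads were 3273 and 1913 in Dph1 KO, against 746 and 965 in Control. Introns held 3.88% and 3.58% of its reads in Dph1 KO, against 3.49% and 3.60% in Control, and the intron share differed little between libraries. The call held in 14 of 15 alternatives and was lost without Control replicate 1 (edgeR adjusted p = 0.0952 at a log2 fold change of 1.07). After removing the smooth dependence of each library on GC content and on length, called GC-corrected from here on, it was 0.73 (edgeR adjusted p = 0.0306).

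The other caps did not pass the test. Psme1 and Psme2 encode the interferon-inducible activator ring that works with the immunoproteasome, and they lie next to each other on chromosome 14. Psme1 had 99.6 and 145 CPM in Dph1 KO, against 110.5 and 129 CPM in Control (log2 fold change 0.03, SE 0.24). Psme2 had 70.7 and 98.1 CPM in Dph1 KO, against 86.9 and 87.0 CPM in Control (-0.04, SE 0.22), and 43.8% of its reads matched one place only. In CPM, Dph1 KO replicate 1 was the lowest of the 4 libraries and replicate 2 the highest in both genes, so the genotypes overlapped. In TPM both Dph1 KO libraries lay above Control in both genes. Psme1 had 223 and 262 TPM in Dph1 KO against 177 and 190 TPM in Control. Psme2 had 157 and 176 TPM against 139 and 126 TPM. GC-corrected, Psme1 was called higher (0.58, edgeR adjusted p = 0.0302), a call found in no other of the 15 alternatives. Psme3, the nuclear activator of the same family, stood at 66.6 and 73.8 CPM in Dph1 KO and at 88.7 and 103 CPM in Control (-0.45 on the log2 scale, SE 0.21, edgeR adjusted p = 0.152). Psmf1, the inhibitor gene, had 116 and 131 CPM in Dph1 KO, against 130 and 175 CPM in Control (-0.31, SE 0.23).

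**Figure D2:**
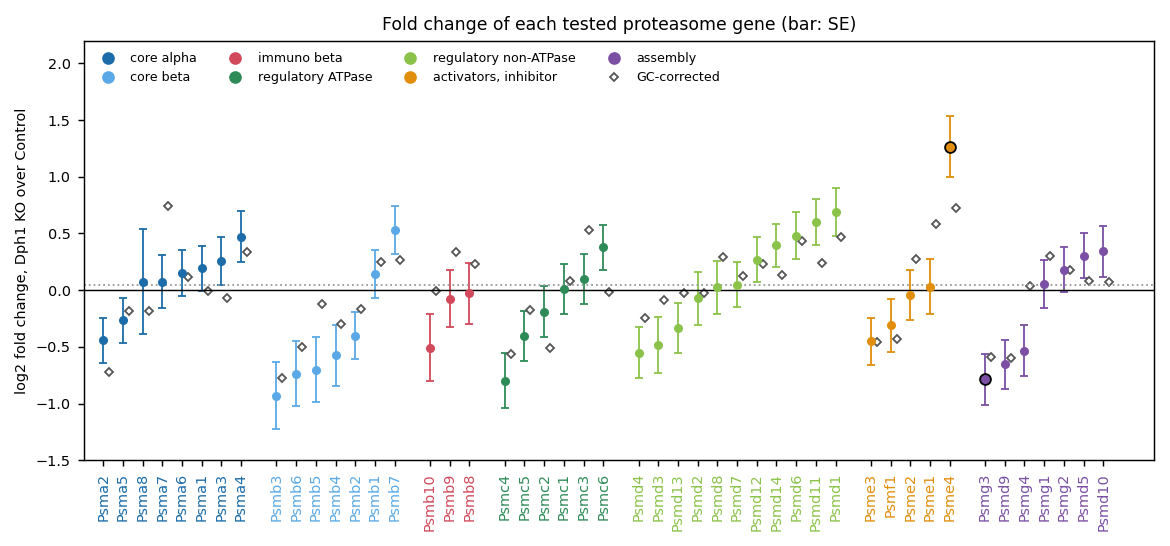
Log2 fold change (Dph1 KO over Control) of each tested member, grouped by class, with bars for the SE, larger outlined circles for the called genes Psme4 and Psmg3, and open diamonds for GC-corrected values. The dotted line is the median of all tested genes (0.04), and Psme4 (1.27) is the only member above 0.69.

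In the core particle, none of the 15 tested constitutive subunits was called by edgeR. Of 8 alpha genes, none had an unadjusted p under 0.05, none was called by DESeq2, and the log2 fold changes ran from -0.44 (Psma2) to 0.47 (Psma4). Psma2 had 64.3 and 67.6 CPM in Dph1 KO, against 86.9 and 92.3 CPM in Control. Psma4 had 95.4 and 68.7 CPM in Dph1 KO, against 59.7 and 58.5 CPM in Control. Its value was 0.24 without Dph1 KO replicate 1 and 0.71 without replicate 2. Psma1, Psma3 and Psma6 had both Dph1 KO libraries above Control with values of 0.19, 0.26 and 0.15, and Psma5 both below with -0.27. Psma7, which is among the most abundant alpha genes, had 77.1 and 85.3 CPM in Dph1 KO, against 92.0 and 62.1 CPM in Control. There the Control libraries enclosed the Dph1 KO pair. In TPM both Dph1 KO libraries of Psma7 lay above Control, at 184 and 165 against 157 and 96.1. Psma8, the germ cell form, was close to the floor at 14 and 24 reads in Dph1 KO and 15 and 14 reads in Control. GC-corrected, Psma2 was called lower (-0.72, edgeR adjusted p = 0.0188), and Psma7 had 0.74 (edgeR adjusted p = 0.0578).

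Of the 7 tested beta genes, all had genotypes that did not overlap, as had 67.4% of all tested genes. At an unadjusted p under 0.05, which 34.2% of all tested genes reached, 3 were lower (Psmb3, Psmb5, Psmb6) and 1 higher (Psmb7), and DESeq2 called 2 lower (Psmb3 and Psmb6). Psmb3, a structural subunit, had 126 and 226 CPM in Dph1 KO, against 333 and 336 CPM in Control. Its log2 fold change was -0.93 (SE 0.29, edgeR adjusted p = 0.0608), and it was called lower in 7 of 15 alternatives. Psmb5, the chymotrypsin-like catalytic subunit, had 143 and 230 CPM in Dph1 KO, against 262 and 344 CPM in Control (-0.70, SE 0.29, edgeR adjusted p = 0.113). Psmb6, the caspase-like catalytic subunit, had 122 and 179 CPM in Dph1 KO, against 197 and 304 CPM in Control (-0.74, SE 0.29, edgeR adjusted p = 0.103). In all 3 genes Dph1 KO replicate 1 was the lowest library. Leaving out Dph1 KO replicate 1 gave smaller differences of -0.54 for Psmb3, -0.37 for Psmb5 and -0.45 for Psmb6. GC-corrected, the values were -0.78 for Psmb3, -0.12 for Psmb5 and -0.50 for Psmb6.

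Psmb7, the trypsin-like catalytic subunit, had a positive value. It had 72.6 and 65.6 CPM in Dph1 KO, against 41.5 and 54.2 CPM in Control (0.53 on the log2 scale, SE 0.21, edgeR adjusted p = 0.111). The structural subunit genes Psmb4 and Psmb2 had values of -0.58 and -0.40, with 193 and 293 CPM in Dph1 KO against 349 and 374 CPM in Control for Psmb4. Psmb4 had -0.28 without Dph1 KO replicate 1 and -0.89 without replicate 2. Psmb1 had 147 and 156 CPM in Dph1 KO, against 134 and 140 CPM in Control (0.14). GC-corrected, Psmb4, Psmb2, Psmb7 and Psmb1 had -0.29, -0.16, 0.27 and 0.25. Reads that matched one place only made up 55.7% for Psmb5 and 67.7% for Psmb3, and fits on these reads alone gave -0.68 and -0.93, while for Psma3, Psma5 and Psma4 they made up 33.9%, 53.7% and 76.3%. Psmb11, the thymus form, had no read in any library.

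The immunoproteasome genes were not called, and the spread inside the Dph1 KO pair exceeded the difference between the genotypes. Psmb8 (chromosome 17, 34198195 to 34201454) had 36.3 and 65.7 CPM in Dph1 KO, against 49.5 and 54.4 CPM in Control (log2 fold change -0.03, SE 0.27). Psmb9 (chromosome 17, 34182099 to 34187330) had 22.4 and 38.5 CPM in Dph1 KO, against 33.6 and 30.7 CPM in Control (-0.08, SE 0.25). Psmb10 had 39.8 and 80.4 CPM in Dph1 KO, against 86.6 and 84.0 CPM in Control (-0.51, SE 0.29, edgeR adjusted p = 0.241). In CPM, Dph1 KO replicate 1 was the lowest library in all 3 genes, at 0.496 to 0.582 times replicate 2. In TPM it was the lowest for Psmb10 only. Psmb8 had 65.1 and 94.7 TPM in Dph1 KO, against 63.2 and 63.8 TPM in Control. Psmb9 had 56.5 and 80.8 TPM in Dph1 KO, against 63.1 and 53.9 TPM in Control. Of the 3 immunoproteasome genes none had an unadjusted p under 0.05, and DESeq2 called none. Without Dph1 KO replicate 2 the log2 fold changes ran from -1.08 to -0.50, and without Dph1 KO replicate 1 from -0.06 to 0.36.

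In CPM, the summed markers of leukocytes, T and NK cells, macrophages, hepatocytes and endothelium were also lowest in Dph1 KO replicate 1. Those of B cells, neutrophils, stellate cells and bile duct were not. In TPM this held for leukocytes and macrophages only, so the pattern depends on the scale. Endothelial markers summed to 103 and 86.5 TPM in Dph1 KO, against 85.0 and 71.6 TPM in Control. The part of these cells in the immunoproteasome values was not tested. The 5 leukocyte markers, of which none was called, summed to 44.6 and 96.0 CPM in Dph1 KO and to 101 and 121 CPM in Control. Of 10 T and NK cell markers, 3 passed the filter and none was called. The 10 summed to 2.71 and 4.30 CPM in Dph1 KO against 3.15 and 4.28 CPM in Control, with Trac listed at 0 in all libraries.

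Each immunoproteasome gene was also set against the constitutive subunit it replaces, as a ratio of TPM, which is scaled by exon length and so allows levels of different genes to be compared. The Psmb8 to Psmb5 ratio was 0.180 and 0.204 in Dph1 KO, against 0.134 and 0.113 in Control. The Psmb9 to Psmb6 ratio was 0.221 and 0.266 in Dph1 KO, against 0.212 and 0.128 in Control. The Psmb10 to Psmb7 ratio was 0.433 and 0.984 in Dph1 KO, against 1.70 and 1.24 in Control. The first pair of ratios was thus higher in both Dph1 KO libraries, by 0.64 and 0.56 on the log2 scale, and the third was lower in both, by -1.15. Each exact two-sided permutation test gave p = 0.333, the smallest that 2 against 2 libraries allow, so no ratio can pass 0.05. For the single genes on the CPM scale, the log2 fold changes were -0.03 and -0.70 for Psmb8 and Psmb5. Psmb9 and Psmb6 had -0.08 and -0.74, and Psmb10 and Psmb7 had -0.51 and 0.53, none of them called. GC-corrected, these pairs of values were 0.23 and -0.12, 0.34 and -0.50, and -0.008 and 0.27, again with none called. Most of these values lay nearer to zero than before, and the ratios themselves were not GC-corrected. Without Control replicate 2 the Psmb9 to Psmb6 difference was 0.20, and without Dph1 KO replicate 1 the Psmb10 to Psmb7 difference was -0.56.

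**Figure D3:**
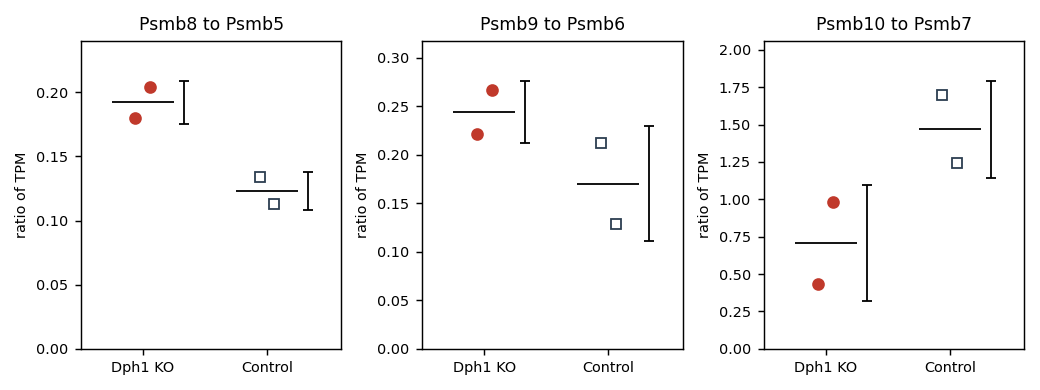
Ratio of TPM of each immunoproteasome gene to the constitutive subunit it replaces, in Dph1 KO (left, filled circles) and Control (right, open squares), with horizontal lines for the means and bars for the SD (n = 2 each). The Psmb8 and Psmb9 ratios are higher in both Dph1 KO libraries and the Psmb10 ratio is lower, with axes that start at 0.

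In the regulatory particle none of the 17 genes was called by edgeR, and members of the same subcomplex stood on both sides. At an unadjusted p under 0.05, which 34.2% of all tested genes reached, 3 were higher (Psmd1, Psmd11, Psmd6) and 2 lower (Psmc4, Psmd4). DESeq2 called Psmd1 higher and Psmc4 lower, where it called 4.77% of all genes higher and 10.3% lower. Among the 6 ATPases, Psmc4 had 97.7 and 128 CPM in Dph1 KO, against 175 and 218 CPM in Control, with no overlap. The difference was -0.80 on the log2 scale (SE 0.24, edgeR adjusted p = 0.0538), and 6 of 15 alternatives called it lower, the GC-corrected fit among them (-0.56). Psmc6 had 46.6 and 37.3 CPM in Dph1 KO, against 33.0 and 31.5 CPM in Control (0.38, SE 0.20). The abundant ATPase genes Psmc1 and Psmc3 had values of 0.01 and 0.10 with genotypes that overlapped in CPM. In TPM both Dph1 KO libraries lay above Control in both genes. GC-corrected, Psmc3 was called higher (0.53, edgeR adjusted p = 0.0434). Psmc2 and Psmc5 had -0.19 and -0.40.

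Psmd1, the largest scaffold subunit of the base, had 111 and 94.4 CPM in Dph1 KO, against 58.9 and 68.5 CPM in Control. The log2 fold change was 0.69 (SE 0.21, edgeR adjusted p = 0.0566), and it was called higher in 8 of 15 alternatives. The lid subunit gene Psmd11 had 73.4 and 63.3 CPM in Dph1 KO, against 42.3 and 47.6 CPM in Control (0.60, SE 0.20, edgeR adjusted p = 0.0697). Psmd6, Psmd12 and Psmd14, also of the lid, had both Dph1 KO libraries above Control, with values of 0.48, 0.27 and 0.39. GC-corrected, Psmd1 and Psmd11 had 0.47 and 0.24, and Psmd6, Psmd12 and Psmd14 had 0.43, 0.23 and 0.14. Psmd14, which encodes the deubiquitinase that removes ubiquitin chains from substrates, had 29.5 and 25.5 CPM in Dph1 KO, against 21.1 and 20.8 CPM in Control.

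The ubiquitin receptor gene Psmd4 stood lower, with 109 and 130 CPM in Dph1 KO, against 164 and 187 CPM in Control (-0.55, SE 0.22, edgeR adjusted p = 0.114). The lid genes Psmd3 and Psmd13 also had both Dph1 KO libraries below Control in CPM, with -0.48 and -0.33. In TPM the genotypes overlapped in both genes. GC-corrected, Psmd4, Psmd3 and Psmd13 had -0.25, -0.09 and -0.02. The genes Psmd8, Psmd2 and Psmd7 overlapped between the genotypes in CPM, with values of 0.02, -0.07 and 0.05. In TPM both Dph1 KO libraries lay above Control in each of these genes. Psmd8 had 235 and 260 CPM in Dph1 KO, against 250 and 237 CPM in Control.

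Among the 7 assembly chaperone genes, 1 fell and 6 were not called. Psmg3, which pairs with Psmg4 to guide the alpha ring, had 9.96 and 13.9 CPM in Dph1 KO, against 19.0 and 22.0 CPM in Control. The means were 11.9 ± 2.76 CPM in Dph1 KO and 20.5 ± 2.11 CPM in Control (SD, n = 2 each). On the log2 scale the fold change was -0.79 (SE 0.22, edgeR adjusted p = 0.0464). The gene (ID 66506; GRCm38 chromosome 5, 139823594 to 139826843, minus strand) had 235 and 303 reads in Dph1 KO and 350 and 396 in Control. Introns held 5.53% and 2.64% of its reads in Dph1 KO, against 2.86% and 1.26% in Control. These shares rest on 13 and 8 intron reads in Dph1 KO and 10 and 5 in Control. Over all genes listed, introns held 10.98% and 8.26% of reads in Dph1 KO, against 8.64% and 6.24% in Control. The 4 libraries stood in the same order there, so the intron difference is not particular to Psmg3. The sign of Psmg3 was negative in all 15 alternatives and its call held in 7. The call was lost without Dph1 KO replicate 1 (-0.54), Control replicate 1 (-0.89) or Control replicate 2 (-0.68), with upper quartile scaling (-0.71), with no scaling (-0.53), with a mean of at least 1 CPM (-0.79), and in limma on TPM (-0.42 and -0.44).

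Psmg4, its partner, had 8.18 and 10.7 CPM in Dph1 KO, against 12.8 and 14.6 CPM in Control (-0.53, SE 0.22, edgeR adjusted p = 0.121), and its GC-corrected value was 0.04. Psmd9, which helps to assemble the ATPase ring, had 33.3 and 44.4 CPM in Dph1 KO, against 56.2 and 66.1 CPM in Control. The log2 fold change was -0.65 (SE 0.22, edgeR adjusted p = 0.0685), and it was called lower by DESeq2 and GC-corrected (-0.60). The other ATPase ring chaperone genes, Psmd5 and Psmd10, had both Dph1 KO libraries above Control with values of 0.30 and 0.34. Psmg1 and Psmg2, which pair with each other, had 0.05 and 0.18. Psmc3ip matched the rule by name, encodes a recombination protein and not a proteasome subunit, and had 5 and 11 reads in Dph1 KO and 3 and 2 in Control, under the filter.

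The fold changes of the members varied with the GC content of their transcripts. Over the 47 members the log2 fold change and the GC content of the longest transcript had a Spearman correlation of -0.59. It was -0.62 over the 12504 tested protein-coding genes, where all genes share the same 4 libraries. Of 12 members under 45% GC, 10 had a positive value, with a median of 0.36. Of 22 members over 50% GC, 17 had a negative value, with a median of -0.40. After the GC correction these medians were 0.03 and -0.03. The correction called 3 members higher (Psme4, Psme1, Psmc3) and 5 lower (Psma2, Psmb3, Psmc4, Psmd9, Psmg3), where 4.99% of the 12517 genes in that fit were called higher and 5.69% lower. Psme4 and Psmg3 were the members called in both fits. The part of GC content in the single differences was not tested.

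**Figure D4:**
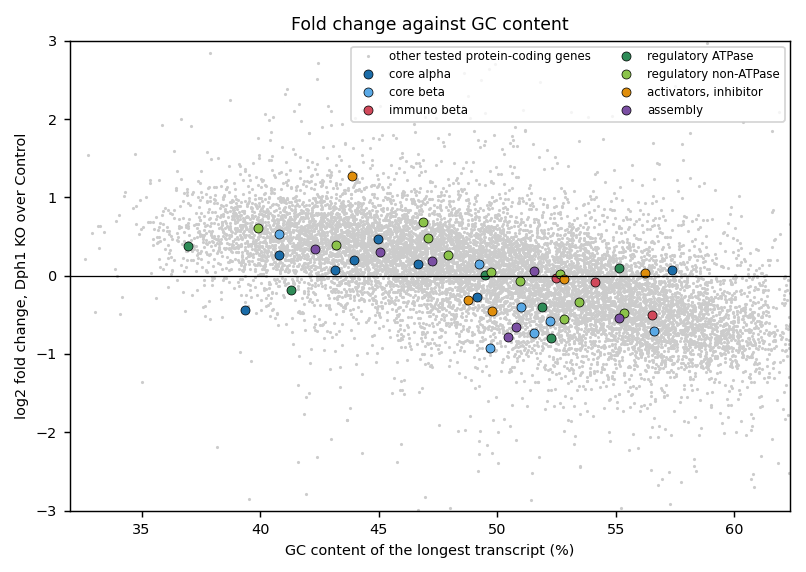
Log2 fold change (Dph1 KO over Control) against GC content (%) of the longest transcript for the tested proteasome genes (coloured by class) and the other tested protein-coding genes (grey). Genes beyond 3 log2 units or of extreme GC content lie outside the axes, and the members fall with GC content along the grey cloud, with Psme4 at 43.9% GC in its upper part.

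The levels of subunits that occur in equal copies differed widely. In TPM averaged over the 4 libraries, the constitutive core ran from 56.2 for Psma3 up to 570.3 for Psmb3, leaving out Psma8. The regulatory particle ran from 26.2 for Psmd14 to 279.9 for Psmd8, and the assembly chaperones from 8.74 for Psmd10 to 34.1 for Psmg4. Beta genes summed to 2052 and 2374 TPM in Dph1 KO, against 2485 and 2632 TPM in Control, and alpha genes to 945 and 715 TPM in Dph1 KO, against 652 and 582 TPM in Control. In CPM with TMM factors the alpha genes summed to 479 and 442 in Dph1 KO, against 449 and 441 in Control, which overlapped, so the alpha difference depends on the scale. The beta sums were 867 and 1224 CPM in Dph1 KO, against 1408 and 1646 CPM in Control, lower on both scales. Neither scale adjusts for GC content. The median log2 fold change of the tested beta genes was -0.58, and -0.16 GC-corrected.

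Partner genes outside the name rule were taken from 5 lists. Their counts of calls stand against 4.86% of all tested genes called higher and 7.47% called lower. Of 16 tested receptors, shuttles and adaptors of the proteasome, 1 rose and none fell, with a list median of 0.15. The gene was AI314180, known as the adaptor that tethers core and regulatory particle, with 65.6 and 49.3 CPM in Dph1 KO, against 29.5 and 31.4 CPM in Control. Its log2 fold change was 0.92 (SE 0.21, edgeR adjusted p = 0.0263), the GC-corrected value was 0.42 (edgeR adjusted p = 0.0750), and the call was lost without either Control library.

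Nfe2l1, the transcription factor that drives proteasome genes when the proteasome fails, was not called (0.22, SE 0.20, chosen after its values were seen). Of 13 genes that make, process or join such factors, 1 rose and none fell, with a median of 0.22. Ngly1, the glycan-removing enzyme that processes the Nfe2l1 protein, had 28.0 and 22.2 CPM in Dph1 KO, against 14.5 and 13.8 CPM in Control (0.82, SE 0.21, edgeR adjusted p = 0.0326). Its GC-corrected value was 0.40 (edgeR adjusted p = 0.0986), and the call was lost without either Control library. None of the 6 ubiquitin and ubiquitin-activating enzyme genes was called by edgeR or DESeq2 or had an unadjusted p under 0.05, and their median was -0.38. Ubb had 995 and 1223 CPM in Dph1 KO against 1436 and 1743 CPM in Control (-0.52, SE 0.28), with 28.5% of its reads matching one place only.

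Among 10 genes of class I antigen processing, which use the peptides that the immunoproteasome makes, 1 rose and none fell, with a median of 0.09. Nlrc5, the transcriptional activator of class I genes, had 30.0 and 32.0 CPM in Dph1 KO, against 18.7 and 16.6 CPM in Control. Its log2 fold change was 0.81 (SE 0.19, edgeR adjusted p = 0.0278) and its GC-corrected value was 0.78 (edgeR adjusted p = 0.0123), while the call was lost without either Control library. Of 13 tested genes of interferon gamma signalling none was called by edgeR or DESeq2. At an unadjusted p under 0.05, which 34.2% of all tested genes reached, 2 of the 13 were higher. The median of the 13 was 0.21, and the abundant members Jak1 and Irf2 had 0.47 (SE 0.21) and -0.08 (SE 0.21).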

How the data were processed

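Liver RNA from 4 libraries, 2 labelled Dph1 KO and 2 labelled Control, was sequenced with a stranded mRNA kit, per the labels' protocols. Per the submitters' processing notes the build was GRCm38 (mm10), while aligner and counter are not given in the sources used. Per the file headers, the authors deposited whole-number read counts per gene (total, uniquely matched, exon and intron reads) and RPKM and TPM values.

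Total gene reads were filtered by filterByExpr, scaled by TMM (factors 1.16 and 1.04 in Dph1 KO, 0.945 and 0.884 in Control) and compared with edgeR 4.0.16 in R 4.3.3 by the quasi-likelihood test, with a single genotype term. Benjamini-Hochberg adjustment ran over 13303 genes, with calls at 0.05. Dividing the log2 fold change by the root of F gave its SE. The biological coefficient of variation was 18.5%. GC content was that of each gene's longest transcript in GENCODE M21 (99.5% of protein-coding genes had a value), and its trend, with that of exon length, was fitted per library with mgcv 1.9.3 on log2 CPM (prior count 2). DESeq2 1.42.0, limma 3.58.1 on log2(TPM + 1), other scalings, filters and read classes, and each library left out, were alternatives. Fits that leave a genotype with 1 library take its variation from the other genotype's pair. The edgeR fits were also run on simulated counts with the same dispersion for all genes and no trend with GC content or length. That run cannot show how the GC correction performs in these data.

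Members and gene lists were chosen with earlier results of these data known. Named genes were Dph1, every member, and from each list up to 3 called genes or, with none called, the 2 most abundant. A result that this rule names is not reported here. Paaf1 and Adgre1 were not matched to the tables, and Sem1 and Ecpas are listed there as Shfm1 and AI314180. SciPy 1.17.1 gave permutation tests.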

Additional observations from a re-analysis of the deposited data

How the results depend on the processing

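The number of genes called over all, 1640, was 3423 with no scaling, 2925 and 3054 with limma-trend on log2(TPM + 1) and log2(TPM + 0.1), and 528 to 5405 with 1 library left out. Members called higher, 1, were 3 with upper quartile scaling, 8 with no scaling, 2 with DESeq2, 13 with limma at either pseudocount, 2 with exon reads, 3 GC-corrected, and 0 to 9 with 1 library left out. Members called lower, 1, were 3 with no filter on low counts, 0 with a mean of at least 1 CPM, 5 with DESeq2, 2 with exon reads, 5 GC-corrected, and 0 to 16 with 1 library left out. The lowest count over all genes came without Control replicate 2 and the highest without Dph1 KO replicate 2. The shares of all genes called moved as well. They were 4.77% higher and 10.3% lower with DESeq2, and 19.8% and 5.93% with no scaling. With limma on log2(TPM + 1) they were 22.1% and 5.25%, and GC-corrected 4.99% and 5.69%. For the other settings the shares stand beside the counts in the Results. The cause of these moves was not tested.

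Over 15 alternatives and 47 members, none of the 702 log2 fold changes had a called value of the opposite sign, 9 lost and 76 gained a call, and 54 values of genes called in neither fit changed sign, in 20 members. The 3 subunit ratios kept their direction with CPM, RPKM and uniquely matched reads. Library scaling and exon length cancel in these differences, so CPM and RPKM do not test the direction. None of these settings adjusted the ratios for GC content. With 1 library left out the differences ran from 0.52 to 0.77 for Psmb8, 0.20 to 0.92 for Psmb9 and -1.75 to -0.56 for Psmb10. As the genotypes did not overlap in any of these ratios, leaving out 1 library could not turn the sign. No paired analysis was possible because the labels number no replicates; the numbers used here follow the order of deposition and pair nothing. With 2 libraries per genotype, the SE of the members' log2 fold changes ran from 0.19 (Psmd14) to 0.46 (Psma8).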
